A study of Mus musculus with 12 samples.

Results

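The glucocorticoid-responsive genes described here are 10 genes: the glucocorticoid receptor Nr3c1, the widely used target genes Sgk1, Fkbp5, Tsc22d3, Zbtb16 and Ddit4, and Usp2, Arrdc3, Etnppl and Ip6k2. They were taken by gene symbol, and all 10 were found among the 56748 genes of the deposited count table and passed the filter on low counts. They were picked with their values in all 12 libraries in view, so their differences between groups are given as a description. Where a member was called (passed edgeR's test across all genes at an adjusted p under 0.05), that is said, but it is no independent test of the member. RNA was measured by poly-A, paired-end sequencing of whole mouse retina. The 4 groups were JR5558 at 8 weeks of age, JR5558 at 4 weeks, wild-type C57BL/6J at 8 weeks and wild-type C57BL/6J at 4 weeks, with 3 retinas from separate mice in each. JR5558 is an inbred line in which new vessels grow under the retina without any treatment. It is known to carry the Crb1 rd8 mutation and a Jak3 mutation. The labels name no drug or hormone, and they give neither sex nor the time of day of collection.

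Glucocorticoids are adrenal steroids that rise and fall with the day and with stress. They bind the receptor encoded by Nr3c1, which waits in the cytosol with Hsp90 chaperones, enters the nucleus and binds DNA at response elements built from paired copies of a short hexamer. Among its best known targets are a kinase of ion transport (Sgk1), a chaperone that lowers the receptor's own affinity (Fkbp5) and a leucine zipper protein of the anti-inflammatory response (Tsc22d3). In the retina, Müller glia are the cell type best known for the receptor, and synthetic glucocorticoids are used against retinal oedema and inflammation. Several targets are also clock-controlled, so the hormone and the time of day can move the same genes.

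Promoter sequences are shown for 4 genes that the comparison of ages in JR5558 called (Sgk1, Usp2, Ip6k2 and Etnppl) and, in shorter windows, for classical targets with a motif (Fkbp5 and Tsc22d3). RefSeq promoter entries of build GRCm38.p6, each of 300 bases (250 before and 50 after a start site), were matched by symbol for 8 of the 10 genes, 19 entries in all. These entries were searched on both strands for the hexamer TGTTCT of the glucocorticoid response element, for 2 hexamers facing each other across 3 bases, for the E-box CACGTG and for the D-box TTATGTAA of clock-controlled genes. Of 32851 promoters in the table, 19.0% held the hexamer, 7.15% the E-box and 0.938% the D-box, and 3 promoters (0.00913%) held the facing pair. In the sequences, capitals mark these motifs, with the 3 bases inside a pair also in capitals.

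Sgk1 had 6 entries, 3 of them with the hexamer. The entry at chr10:21993640-21993939 (plus strand) was one of the 3 promoters of the whole table with the facing pair, whose first base lay at -189 from the start site. The same entry held an E-box at -246, which overlaps a further hexamer at -242. The single Usp2 entry, chr9:44084670-44084969 (plus strand), held none of the motifs. Ip6k2 had a hexamer at -207 in the entry at chr9:108783562-108783861 (plus strand) and none in its other entry. The Etnppl entry shown, chr3:130617325-130617624 (plus strand), held none, and neither did the other Etnppl entry. The single Fkbp5 entry held no hexamer but an E-box at -169, shown in a window of 60 bases at chr17:28486286-28486345 (minus strand). Tsc22d3 had a hexamer at -185 in 1 of its 3 entries, shown at chrX:140600675-140600734 (minus strand), and none of the motifs in the others. All entries of Arrdc3 and Ddit4 were without these letters. A match is a string of letters and not a bound site, and no match says nothing of sites outside the window.
Sgk1: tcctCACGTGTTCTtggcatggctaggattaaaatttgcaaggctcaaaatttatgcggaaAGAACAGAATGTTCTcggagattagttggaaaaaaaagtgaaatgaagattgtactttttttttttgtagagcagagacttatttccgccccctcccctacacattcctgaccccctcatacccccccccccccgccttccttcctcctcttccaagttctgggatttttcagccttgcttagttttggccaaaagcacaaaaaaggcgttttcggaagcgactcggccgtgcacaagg
Usp2: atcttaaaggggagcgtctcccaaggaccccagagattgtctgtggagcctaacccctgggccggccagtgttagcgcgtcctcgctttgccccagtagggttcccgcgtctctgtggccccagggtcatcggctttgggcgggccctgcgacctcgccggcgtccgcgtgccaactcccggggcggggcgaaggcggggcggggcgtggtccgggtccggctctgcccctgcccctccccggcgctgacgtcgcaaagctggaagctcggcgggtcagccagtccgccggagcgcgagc
Ip6k2: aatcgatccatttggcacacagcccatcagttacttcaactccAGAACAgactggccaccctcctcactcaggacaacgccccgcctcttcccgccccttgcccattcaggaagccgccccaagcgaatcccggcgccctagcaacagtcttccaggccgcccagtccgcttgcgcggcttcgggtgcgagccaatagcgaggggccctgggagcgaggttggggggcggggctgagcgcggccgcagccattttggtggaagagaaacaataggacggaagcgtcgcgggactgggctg
Etnppl: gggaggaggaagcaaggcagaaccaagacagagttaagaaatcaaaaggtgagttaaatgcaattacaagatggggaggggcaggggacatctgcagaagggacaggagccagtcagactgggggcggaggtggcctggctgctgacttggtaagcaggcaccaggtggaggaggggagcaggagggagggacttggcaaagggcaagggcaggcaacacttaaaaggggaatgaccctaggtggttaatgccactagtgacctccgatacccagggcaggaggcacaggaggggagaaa
Fkbp5: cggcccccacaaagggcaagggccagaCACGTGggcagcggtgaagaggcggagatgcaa
Tsc22d3: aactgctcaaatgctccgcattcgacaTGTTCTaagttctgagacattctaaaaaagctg

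Depth was 18029611 to 23739886 counts per library, and 99.9% of the counts of each library lay in the 18334 genes tested. In support of the tissue label, 8 rod markers including rhodopsin summed to 52868 to 64748 CPM. In JR5558 at 4 weeks, the X-inactivation RNA Xist had 2, 5 and 0 counts and Ddx3y, which is Y-linked, had 1846, 1504 and 1323. In the 9 other libraries Xist had 7772 to 22988 counts and Ddx3y 0. Strain at 4 weeks and age in JR5558 therefore cannot be told apart from this difference, whereas strain at 8 weeks and age in C57BL/6J compare libraries with Xist on both sides. JR5558 4-week replicate 3 stood apart on the second principal component. Marker RNA differed between groups: summed over 12 Müller glia genes it was 7760.1 to 8234 CPM in JR5558 at 8 weeks, 6325 to 7264 in JR5558 at 4 weeks, 6353 to 6773 in C57BL/6J at 8 weeks and 5323 to 6437 in C57BL/6J at 4 weeks. These sums were apart between the strains at 8 weeks and between the ages in JR5558. They overlapped between the strains at 4 weeks and between the ages in C57BL/6J. Summed over 11 pigment epithelium genes, marker RNA was 489 to 667, 425 to 605, 216 to 351 and 153 to 294 CPM in the same order of groups, with the strains apart at both ages. CPM are counts scaled to a library total of 1e+06 with TMM factors.

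Levels between genes were compared per transcript length, by the authors' FPKM. Ddit4 (61.9 to 108 FPKM over the 12 libraries), Sgk1 (46.8 to 91.8) and Ip6k2 (38.4 to 104) stood at the top and overlapped. Usp2 had 19.6 to 41.8, which overlaps the low end of Ip6k2, and lay above Arrdc3 with 12.2 to 18.4. The lower end of Arrdc3 met the upper end of Nr3c1, at 9.65 to 12.2, and Nr3c1 overlapped Tsc22d3, at 8.58 to 11.4. Fkbp5 stood at 2.76 to 4.08, Etnppl at 0.798 to 3.04 and Zbtb16 at 0.46 to 1.38, with overlaps between Fkbp5 and Etnppl and between Etnppl and Zbtb16.

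**Figure D1:**
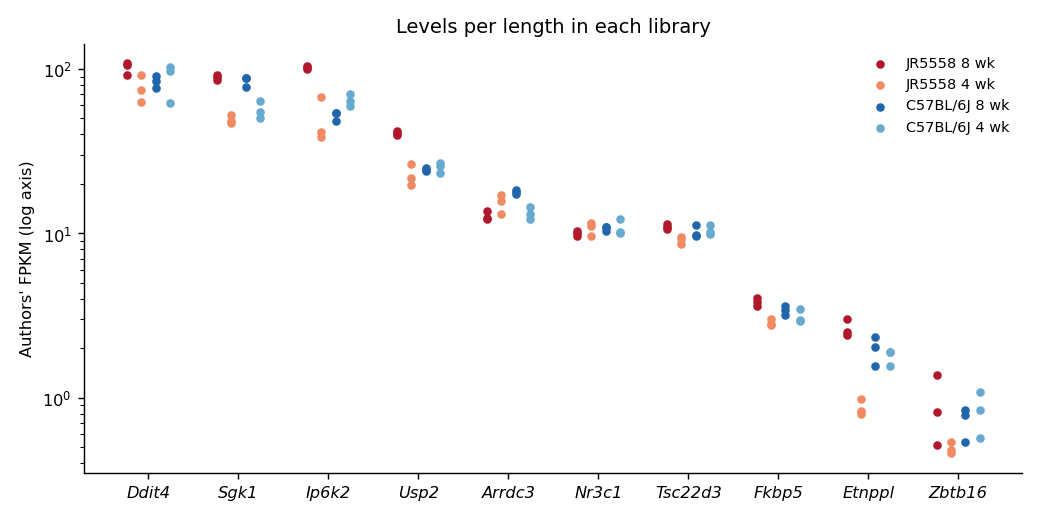
Authors' FPKM (log axis) of the 10 genes in each of the 12 libraries, 1 point per library, with JR5558 in red and orange and C57BL/6J in blues. Ddit4, Sgk1 and Ip6k2 overlap at the top, and Zbtb16 is lowest with 0.46 to 1.38 FPKM.

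The receptor's groups overlapped in every comparison. Nr3c1 stood at 80.5, 78.2 and 74.8 CPM in JR5558 at 8 weeks, at 86.1, 89.4 and 74.9 CPM in JR5558 at 4 weeks, at 84.6, 80.0 and 84.5 CPM in C57BL/6J at 8 weeks and at 78.7, 78.0 and 93.2 CPM in C57BL/6J at 4 weeks. Log2 fold changes ran from -0.10 ± 0.09 for age in JR5558 to 0.00 ± 0.09 for strain at 4 weeks (± is the standard error of the fitted log2 fold change throughout). Of 15 other tested genes that act on the receptor or its ligand (chaperones, coregulators, the mineralocorticoid receptor and the steroid dehydrogenase Hsd11b1), edgeR called 0 in each of the 5 comparisons at an adjusted p of 0.05. At an unadjusted p under 0.05 the counts were 1 for strain at 8 weeks, 3 for strain at 4 weeks, 6 for age in JR5558, 5 for age in C57BL/6J and 0 for strain by age, and DESeq2 called 0, 0, 2, 1 and 0. Nr3c2, the mineralocorticoid receptor, which also binds glucocorticoids, had log2 fold changes of 0.13 ± 0.12 for strain at 8 weeks and -0.11 ± 0.12 at 4 weeks. Fkbp4, the co-chaperone that favours hormone binding, had 0.09 ± 0.11 and 0.04 ± 0.11. Hsd11b1, which regenerates active glucocorticoid inside cells, was close to the detection limit, with means of 0.859, 0.507, 0.588 and 0.493 CPM in JR5558 at 8 weeks, JR5558 at 4 weeks, C57BL/6J at 8 weeks and C57BL/6J at 4 weeks.

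Sgk1 encodes the serum and glucocorticoid-regulated kinase, which keeps sodium channels and pumps at the cell surface. It was higher at 8 weeks in both strains. In JR5558 it stood at 439, 422 and 452 CPM at 8 weeks, against 238, 231 and 259 CPM at 4 weeks. In C57BL/6J it stood at 382, 435 and 435 CPM at 8 weeks, against 249, 272 and 314 CPM at 4 weeks. The ages did not overlap in either strain, and the strains overlapped at both ages. The age difference was a log2 fold change of 0.85 ± 0.08 (1.80-fold) in JR5558 and of 0.58 ± 0.08 (1.50-fold) in C57BL/6J. The strain difference was 0.07 ± 0.08 at 8 weeks and -0.20 ± 0.08 at 4 weeks.

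Usp2 encodes a ubiquitin-specific protease that is linked to the circadian clock and to sodium handling. It was higher in the JR5558 retinas of 8 weeks than in any other library: 197, 203 and 192 CPM there, 95.2, 106 and 129 CPM in JR5558 at 4 weeks, 122, 117 and 118 CPM in C57BL/6J at 8 weeks and 114, 125 and 129 CPM in C57BL/6J at 4 weeks. The 9 other libraries overlapped with each other across their 3 groups. The log2 fold change was 0.73 ± 0.09 (1.66-fold) for strain at 8 weeks and 0.84 ± 0.09 (1.79-fold) for age in JR5558. It was -0.16 ± 0.09 for strain at 4 weeks and -0.05 ± 0.09 for age in C57BL/6J.

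Ip6k2 encodes an inositol hexakisphosphate kinase, which makes an inositol pyrophosphate. It had the same high group: 410.4, 428 and 419 CPM in JR5558 at 8 weeks, 158, 171 and 277 CPM in JR5558 at 4 weeks, 197, 219.6 and 221 CPM in C57BL/6J at 8 weeks and 244, 291 and 259 CPM in C57BL/6J at 4 weeks. The third JR5558 retina of 4 weeks, which stood apart on the second principal component, lay above the other JR5558 retinas of that age, also for Usp2. The log2 fold change was 0.98 ± 0.14 (1.97-fold) for strain at 8 weeks and -0.39 ± 0.14 for strain at 4 weeks, which was -0.69 without that library. For age it was 1.06 ± 0.14 (2.08-fold) in JR5558 and -0.32 ± 0.14 in C57BL/6J, and the ages did not overlap in either strain. A small RNA gene on the other strand, Gm23034, overlaps Ip6k2 and held 17 counts over all libraries, against 67327 for Ip6k2.

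Etnppl encodes the phospho-lyase that breaks down phosphoethanolamine, an enzyme known from astrocytes and liver. It stood at 25.3, 21.0 and 19.9 CPM in JR5558 at 8 weeks, against 8.17, 6.64 and 6.97 CPM in JR5558 at 4 weeks. In C57BL/6J it stood at 13.0, 19.4 and 16.9 CPM at 8 weeks, against 13.0, 15.8 and 15.6 CPM at 4 weeks. JR5558 lay below C57BL/6J at 4 weeks and above it at 8 weeks, each time without overlap, although at 8 weeks the nearest libraries were only 19.9 and 19.4 CPM. The log2 fold change for age in JR5558, 1.60 ± 0.16 (3.03-fold), was the largest of the 10 genes. For strain it was 0.43 ± 0.15 at 8 weeks and -1.03 ± 0.16 at 4 weeks. In whole retina, fewer cells of a type and less RNA per cell cannot be told apart, and the part of the Müller glia RNA given above in these differences was not tested.

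Arrdc3 encodes an alpha-arrestin, an adaptor that sends membrane receptors to degradation, and it ran the other way. It stood at 86.5, 78.9 and 77.7 CPM in JR5558 at 8 weeks, against 113, 109.7 and 116 CPM in C57BL/6J at 8 weeks. At 4 weeks it stood at 108, 98.8 and 83.5 CPM in JR5558, against 82.5, 77.2 and 90.0 CPM in C57BL/6J. The strains did not overlap at 8 weeks and overlapped at 4 weeks. The log2 fold change was -0.48 ± 0.09 for strain at 8 weeks and 0.22 ± 0.09 at 4 weeks. For age it was -0.26 ± 0.09 in JR5558 and 0.44 ± 0.09 (1.36-fold) in C57BL/6J, and the ages were apart only in C57BL/6J.

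**Figure D2:**
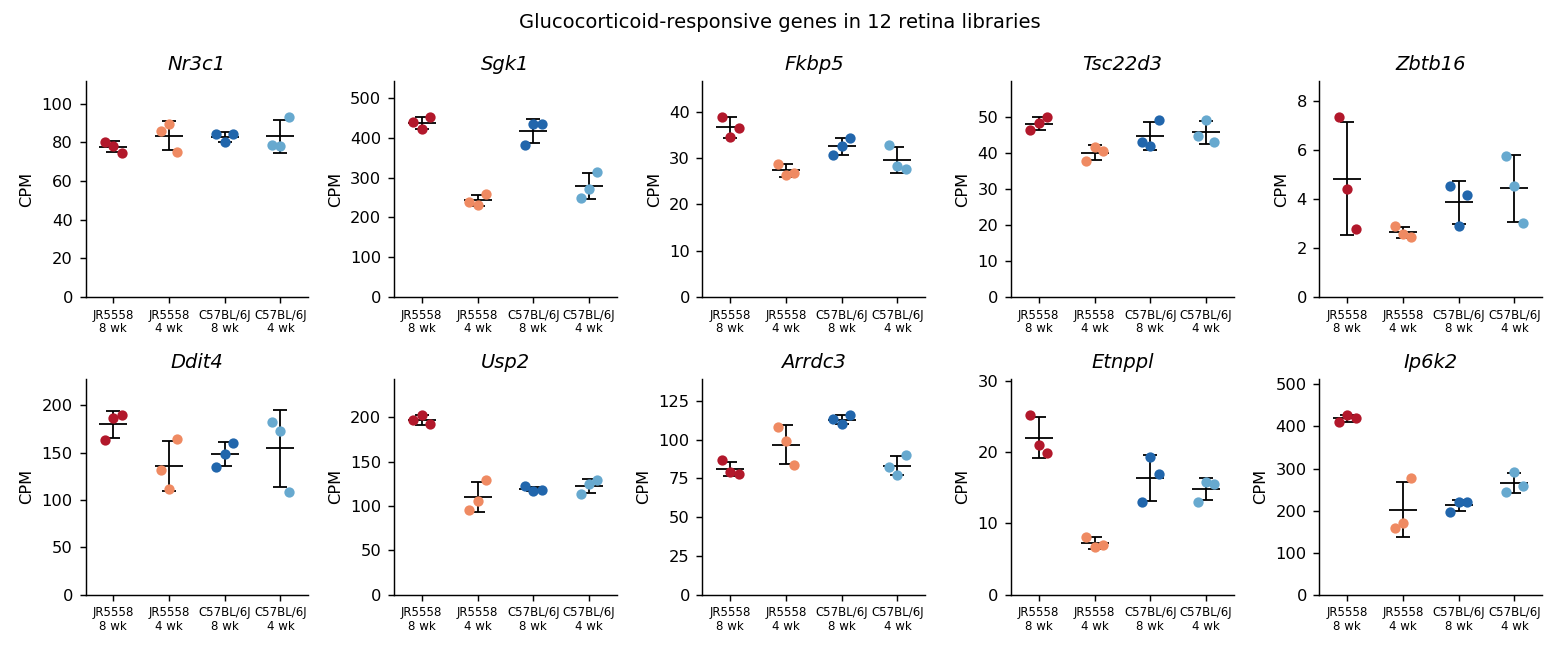
CPM (linear axes from 0) of the 10 genes in each retina, grouped by strain and age, with the mean and SD of 3 mice. Usp2 and Ip6k2 are highest in all 3 JR5558 retinas of 8 weeks, Sgk1 is higher at 8 weeks in both strains, and Nr3c1 overlaps between all groups.

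Fkbp5 and Tsc22d3 had smaller differences than Sgk1, Usp2, Ip6k2 and Etnppl for age in JR5558. Fkbp5, the receptor's inhibitory co-chaperone, stood at 38.9, 34.5 and 36.5 CPM in JR5558 at 8 weeks, 28.8, 26.3 and 26.9 CPM in JR5558 at 4 weeks, 30.6, 32.6 and 34.4 CPM in C57BL/6J at 8 weeks and 32.9, 28.3 and 27.7 CPM in C57BL/6J at 4 weeks. Its log2 fold change was 0.42 ± 0.10 (1.34-fold) for age in JR5558 and 0.13 ± 0.10 for age in C57BL/6J. For strain it was 0.17 ± 0.10 at 8 weeks and -0.12 ± 0.10 at 4 weeks.

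Tsc22d3, the glucocorticoid-induced leucine zipper, stood at 46.2, 48.1 and 49.9 CPM in JR5558 at 8 weeks, 37.6, 41.6 and 40.6 CPM in JR5558 at 4 weeks, 42.9, 41.9 and 49.2 CPM in C57BL/6J at 8 weeks and 44.7, 49.2 and 43.1 CPM in C57BL/6J at 4 weeks. All 3 JR5558 retinas of 4 weeks lay below the JR5558 retinas of 8 weeks and below the C57BL/6J retinas of 4 weeks. The log2 fold change was 0.27 ± 0.09 for age in JR5558 and -0.19 ± 0.09 for strain at 4 weeks. Tsc22d3 is X-linked, and the JR5558 retinas of 4 weeks are the group almost without Xist RNA. The part of this in its differences was not tested.

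Ddit4, a hypoxia and stress inhibitor of mTOR signalling, was the least regular of the abundant genes, with 163, 186 and 190.0 CPM in JR5558 at 8 weeks, 132, 112 and 164 CPM in JR5558 at 4 weeks, 135, 149 and 160.3 CPM in C57BL/6J at 8 weeks and 182, 173 and 108 CPM in C57BL/6J at 4 weeks. The strains were apart at 8 weeks by a log2 fold change of 0.28 ± 0.15 and overlapped at 4 weeks, and the age difference in JR5558 was 0.41 ± 0.15, with overlap. Zbtb16, a zinc finger repressor known as a sensitive steroid target, was rare, at 7.34, 4.39 and 2.76 CPM in JR5558 at 8 weeks, 2.89, 2.56 and 2.45 CPM in JR5558 at 4 weeks, 4.53, 2.88 and 4.17 CPM in C57BL/6J at 8 weeks and 5.74, 4.52 and 3.01 CPM in C57BL/6J at 4 weeks. JR5558 lay below C57BL/6J at 4 weeks without overlap, at a log2 fold change of -0.74 ± 0.32. For age in JR5558 it was 0.87 ± 0.31, with overlap, since 1 retina of 8 weeks stood at 2.76 CPM. Neither was called. Within groups its pooled SD of log2 CPM, 0.451, lay at percentile 80.9 of the tested genes, while Tsc22d3, Fkbp5, Nr3c1 and Sgk1 lay at 13.6, 15.4, 19.3 and 22.7.

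Counted against all genes, with edgeR's quasi-likelihood test at an adjusted p under 0.05, the strain comparison at 8 weeks called 3 of the 10 members, Usp2 and Ip6k2 higher and Arrdc3 lower, beside 5.18% of all tested genes. Strain at 4 weeks called 1, Etnppl lower, beside 6.16% of all genes. Age in JR5558 called 5, all higher (Sgk1, Fkbp5, Usp2, Etnppl and Ip6k2), beside 0.676% of all genes in that direction and 1.51% in either, and age in C57BL/6J called 2, both higher (Sgk1 and Arrdc3), beside 0.202% in that direction and 0.431% in either. The difference between the strain effects at 8 and at 4 weeks called 4, beside 0.0927% of all genes: Usp2 at 0.89 ± 0.13, Etnppl at 1.45 ± 0.22, Ip6k2 at 1.37 ± 0.20 and Arrdc3 at -0.70 ± 0.13. Groups did not overlap for 6 members for strain at 8 weeks (30.2% of all genes), 3 for strain at 4 weeks (19.6%), 6 for age in JR5558 (24.3%) and 3 for age in C57BL/6J (19.0%). As the members were picked with these values known, nothing is read from these shares. The call of Fkbp5 for age in JR5558 ended under 6 of 12 alternatives, namely a replicate block and the fits without any JR5558 library but 4-week replicate 3 (log2 fold change 0.38 to 0.47). That of Arrdc3 ended under 7 of 12 for age in C57BL/6J, among them those without any C57BL/6J library but 4-week replicate 3 (0.38 to 0.46), and under 13 of 17 for strain by age, among them those without any library but the replicates 3 of 4 weeks (-0.73 to -0.60).

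**Figure D3:**
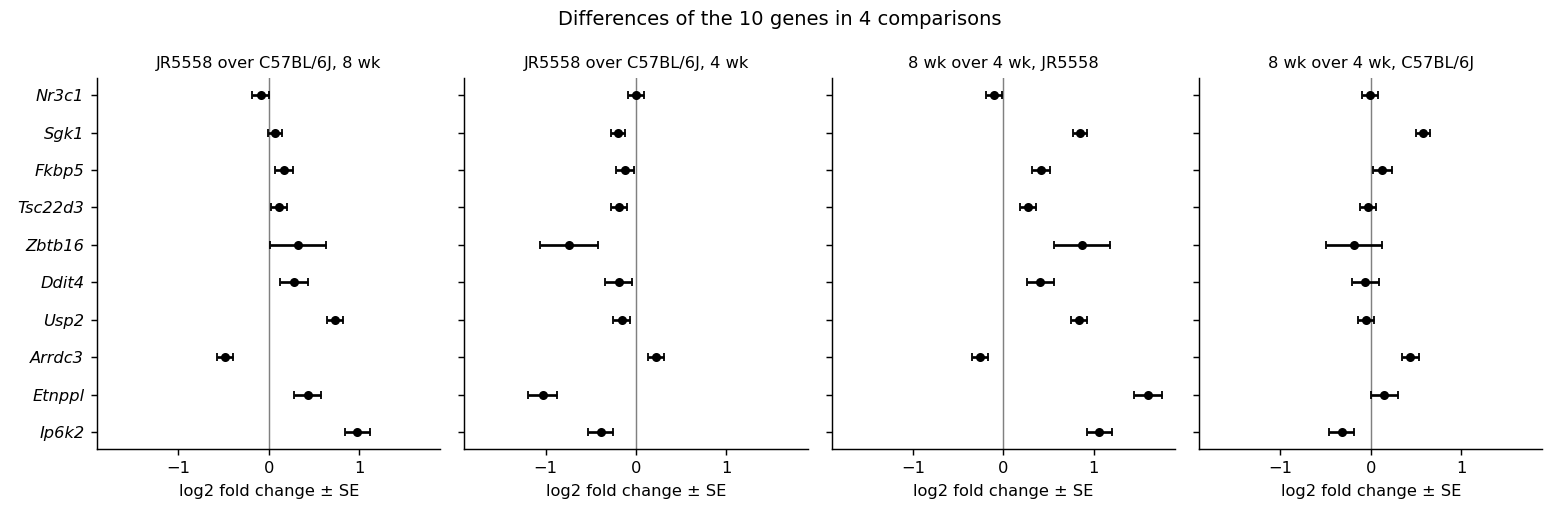
Log2 fold change with its standard error for each of the 10 genes, with strain at 8 and at 4 weeks and age in JR5558 and in C57BL/6J in 4 panels. Etnppl (1.60) and Ip6k2 (1.06) lie furthest to the right for age in JR5558, and Nr3c1 lies between -0.10 and 0.00 in all panels.

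A list of 34 other genes that glucocorticoids are known to induce was counted from the same fit, and 30 of them passed the filter. The list, like those that follow, was drawn up with earlier results of these data known, so its counts and adjusted p-values are not independent evidence. At 8 weeks, 8 of the 30 rose in JR5558, beside 2.54% of all tested genes, and 0 fell, beside 2.63%, with a median log2 fold change of 0.33, against 0.00 over all tested genes, and 27 of the 30 had a positive value. The largest was Cebpd, a transcription factor of inflammation and differentiation, at 35.5, 45.3 and 42.7 CPM in JR5558, against 9.24, 10.7 and 12.4 CPM in C57BL/6J (log2 fold change 1.94 ± 0.28, edgeR adjusted p = 0.000139). Fam107a, an actin-binding protein that glucocorticoids induce in brain, stood at 25.2, 32.0 and 32.4 CPM in JR5558, against 12.7, 18.4 and 18.0 CPM in C57BL/6J (0.87 ± 0.14, edgeR adjusted p = 0.000746). None of these libraries overlapped between the strains.

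Klf15, a glucocorticoid-induced regulator of amino acid metabolism, stood at 15.4, 16.5 and 17.9 CPM in JR5558 at 8 weeks, against 9.29, 9.90 and 8.34 CPM in C57BL/6J (0.86 ± 0.18, edgeR adjusted p = 0.00648). Arrdc2, an alpha-arrestin related to Arrdc3, stood at 25.8, 31.0 and 32.4 CPM in JR5558, against 18.7, 16.3 and 15.7 CPM in C57BL/6J (0.82 ± 0.17, edgeR adjusted p = 0.00608). Its sign was opposite to the -0.48 ± 0.09 of Arrdc3. The other 4 that rose were the phagocytosis receptor Mertk (0.83 ± 0.15), the metallothionein Mt1 (0.78 ± 0.15), the clock repressor Per1 (0.55 ± 0.12) and the phosphatase Dusp1 (1.08 ± 0.24), with edgeR adjusted p of 0.00192, 0.00327, 0.00728 and 0.00866. The Dusp1 call ended without C57BL/6J 8-week replicate 1 (edgeR adjusted p = 0.0715). Mertk is also a gene of the pigment epithelium, whose summed marker RNA was higher in JR5558 at both ages, and its part in the result was not tested. Beside the 8 genes, 4 of 12 Müller glia markers (Glul is on both lists), 2 of 7 microglia markers and 3 of 11 pigment epithelium markers rose in JR5558 at 8 weeks and none of these fell. Of 4 astrocyte markers 2 rose, and of 8 rod markers 2 fell, where 2.54% of all tested genes rose and 2.63% fell. The summed microglia markers stood at 69.0 to 78.7 CPM in JR5558, against 49.1 to 53.9 CPM in C57BL/6J, and the summed astrocyte markers at 71.9 to 82.3 CPM in JR5558, against 53.6 to 59.2 CPM in C57BL/6J. The summed rod markers stood at 54801 to 56640.0 CPM in JR5558, against 62248 to 64748 CPM in C57BL/6J. Their part in the list's values was not tested either.

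At 4 weeks the same list gave 2 genes up and 1 down in JR5558, beside 3.27% and 2.90% of all tested genes, with a median log2 fold change of 0.07. Of the marker lists, 6 of 12 Müller glia, 10 of 11 pigment epithelium, 2 of 7 microglia and 2 of 4 astrocyte genes rose. None of these fell, and 0 of 8 rod markers were called. The part of these markers at 4 weeks was not tested. Cebpd stood at 35.9, 12.2 and 39.1 CPM in JR5558, against 10.4, 11.4 and 9.31 CPM in C57BL/6J (1.50 ± 0.28, edgeR adjusted p = 0.00188), so 1 JR5558 retina lay close to C57BL/6J. Mertk rose by 0.89 ± 0.15 (edgeR adjusted p = 0.000738). Nfkbia, the NF-κB inhibitor, fell, with 21.2, 20.8 and 24.4 CPM in JR5558 against 30.5, 30.2 and 26.7 CPM in C57BL/6J (-0.39 ± 0.10, edgeR adjusted p = 0.0219), a call that ended without replicate 1 or 2 of either strain and with only the groups compared (edgeR adjusted p up to 0.139). No gene of the list passed for the difference between the strain effects at the 2 ages with edgeR (7 at an unadjusted p under 0.05, 1 with DESeq2, 4 without JR5558 4-week replicate 3 and 1 without C57BL/6J 4-week replicate 3).

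**Figure D4:**
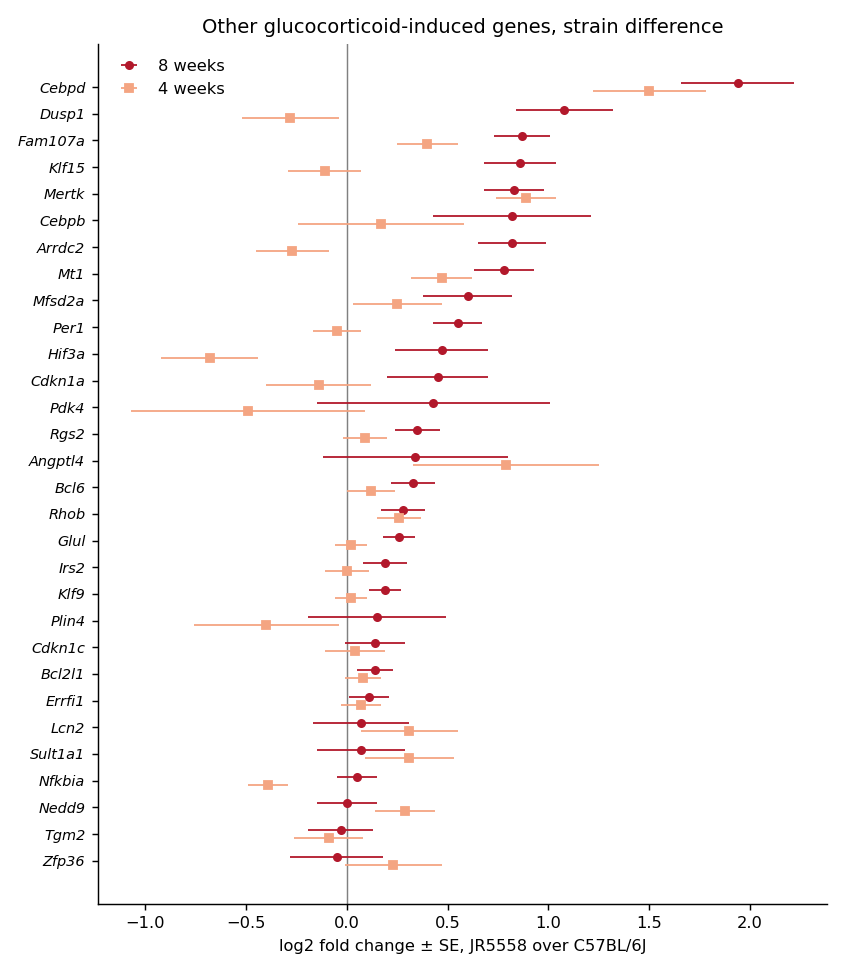
Log2 fold change of JR5558 over C57BL/6J with its standard error for the 30 tested genes of the list of other glucocorticoid-induced genes, in order of the value at 8 weeks (red circles), with the value at 4 weeks (orange squares). At 8 weeks 27 of 30 lie above 0, with a median of 0.33; at 4 weeks the median is 0.07.

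Between the ages, 5 genes of the list rose in JR5558 (0.676% of all tested genes did) and 0 fell (0.835% of all tested genes did), with a median of 0.29. Arrdc2 stood at 25.8, 31.0 and 32.4 CPM at 8 weeks, against 8.99, 9.78 and 14.2 CPM at 4 weeks (1.44 ± 0.18, edgeR adjusted p = 0.000186). Fam107a rose by 0.93 ± 0.14 (edgeR adjusted p = 0.00206), Nfkbia by 0.53 ± 0.10 (0.00964), Klf15 by 0.89 ± 0.18 (0.0163) and Per1 by 0.52 ± 0.12 (0.0311). The Klf15 call ended without 4-week replicate 1 or 2 or 8-week replicate 2 or 3 of JR5558 (edgeR adjusted p up to 0.113), the Per1 call without any of these or 8-week replicate 1 (up to 0.122), and the Nfkbia call without 4-week or 8-week replicate 2 (up to 0.0636). With 1 JR5558 library left out, the count of 5 became 2 to 7. These age comparisons set libraries with Xist against libraries without it. In the same comparison 3 of 5 pericyte markers, 2 of 8 endothelial markers and 2 of 4 blood markers fell, beside the same 0.835% of all tested genes. Their median log2 fold changes were -0.58, -0.42 and -1.25. Summed, the pericyte markers stood at 99.3 to 106 CPM (median 104) at 8 weeks, against a median of 165 and a highest value of 169.6 CPM at 4 weeks, with the ages apart, the endothelial markers at 172 to 186 CPM at 8 weeks, against 177 to 197 CPM at 4 weeks, and the blood markers at 18.8 to 19.7 CPM at 8 weeks, against 40.1 to 54.8 CPM at 4 weeks. The summed Müller glia markers were higher at 8 weeks, at 7760.1 to 8234 CPM, against 6325 to 7264 CPM at 4 weeks. EdgeR called 0 of these 12 markers (7 at an unadjusted p under 0.05, 3 with DESeq2), and 7 of the 12 had a positive value. The part of all these markers in the list's values was not tested. In C57BL/6J edgeR called 0 of the 30 (3 at an unadjusted p under 0.05, 0 with DESeq2), with a median of 0.07.

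**Figure D5:**
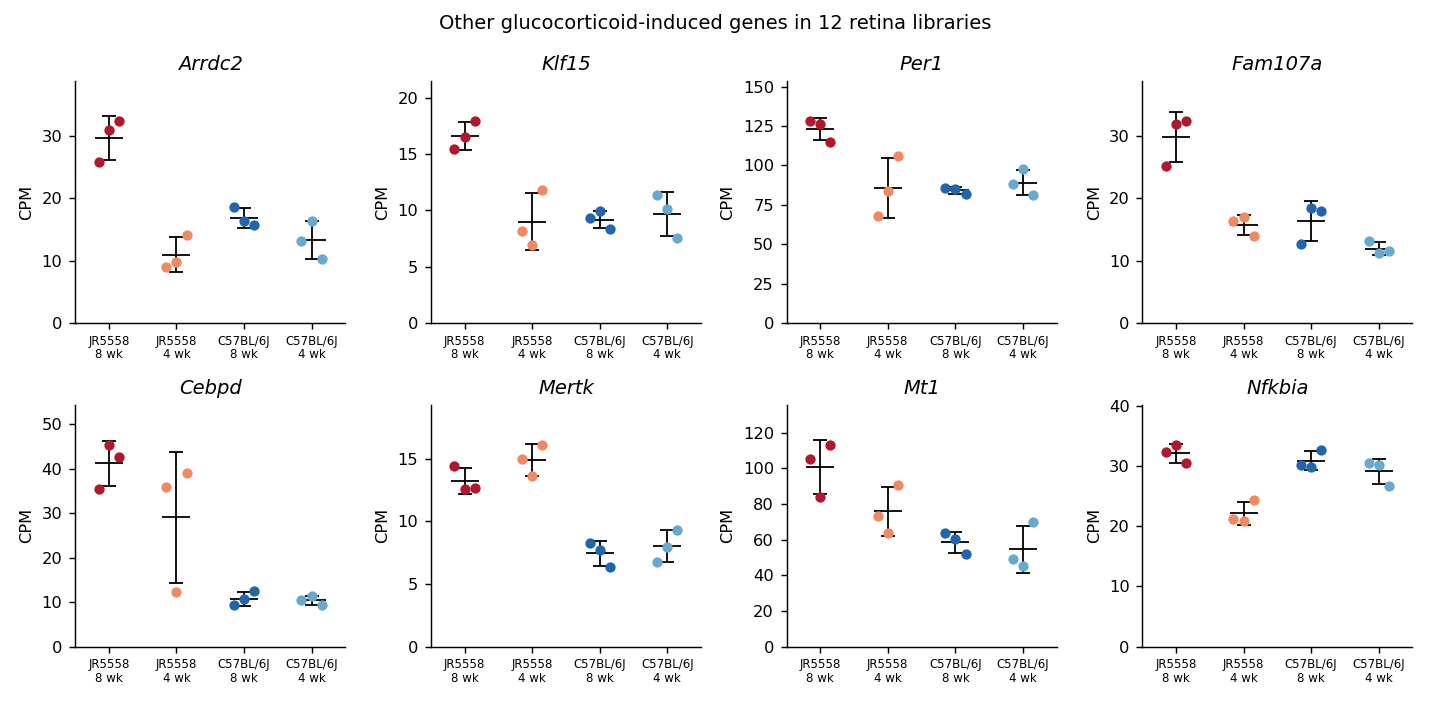
CPM (linear axes from 0) in each retina for 8 genes of the list of other glucocorticoid-induced genes, with the mean and SD of 3 mice. Arrdc2, Klf15, Per1 and Fam107a are highest in the JR5558 retinas of 8 weeks, Mertk is higher in JR5558 at both ages, and Cebpd is at 12.2 CPM in 1 JR5558 retina of 4 weeks.

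Of 13 genes that glucocorticoids repress, 7 passed the filter: adhesion molecules, a chemokine, a prostaglandin enzyme, a matrix protease and hormone precursor genes. The interleukins, tumour necrosis factor and the other chemokines of the list were among those too low to test. EdgeR called 0 of the 7 in every comparison, as did DESeq2, and at an unadjusted p under 0.05 the counts were 1 for strain at 8 weeks, 2 for strain at 4 weeks, 1 for age in JR5558, 0 for age in C57BL/6J and 0 for strain by age. Their median log2 fold change was 0.18 for strain at 8 weeks and 0.25 at 4 weeks. Among 16 tested partners and substrates of the Sgk1 kinase, 2 rose and 1 fell in JR5558 at 8 weeks, beside 5.18% of all genes called in either direction. Ndrg2, a family member of the classical Sgk1 substrate Ndrg1, stood at 190.1, 187 and 188 CPM in JR5558 at 8 weeks, against 130.1, 138 and 138 CPM in C57BL/6J (0.48 ± 0.07, edgeR adjusted p = 0.000162), and it rose at 4 weeks as well (0.44 ± 0.07, edgeR adjusted p = 0.000374). Sgk1 itself had 0.07 ± 0.08 and -0.20 ± 0.08 for strain at 8 and at 4 weeks. The part of the glial marker RNA given above in the Ndrg2 values was not tested. Nedd4l, the ubiquitin ligase that Sgk1 holds off sodium channels, fell by 0.34 ± 0.08 at 8 weeks (edgeR adjusted p = 0.0223). With age edgeR called 0 of the 16 in either strain, with 7 in JR5558 and 2 in C57BL/6J at an unadjusted p under 0.05 and 0 with DESeq2.

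Of 31 tested relatives of the members, 1 rose and 3 fell in JR5558 at 8 weeks, beside the same 5.18%. Ip6k3, the muscle-enriched inositol hexakisphosphate kinase, averaged 3.09 ± 0.159 CPM in JR5558 and 8.25 ± 1.69 CPM in C57BL/6J at 8 weeks (SD, n = 3 each), a log2 fold change of -1.41 ± 0.21 (edgeR adjusted p = 0.000254) beside the 0.98 ± 0.14 of Ip6k2. Tsc2 (-0.36 ± 0.09, edgeR adjusted p = 0.0166) and Ppip5k1 (-0.26 ± 0.07, edgeR adjusted p = 0.0478) were the other 2 that fell, and Arrdc2 was the gene that rose. At 4 weeks edgeR called 0 of the 31 (9 at an unadjusted p under 0.05, 1 with DESeq2). Age called Arrdc2 in JR5558 and 0 in C57BL/6J (6 at an unadjusted p under 0.05, 1 with DESeq2).

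Clock genes follow the time of day, which the labels do not give. Of 19 tested, 2 rose (Ciart and Per1, which is also on the list above) and 1 fell (Rorb, -0.32 ± 0.09, edgeR adjusted p = 0.0343) in JR5558 at 8 weeks, and 1 fell at 4 weeks (Per2, -0.53 ± 0.13, edgeR adjusted p = 0.0154, and up to 0.0654 without replicate 2 of either strain). All genes were called at 5.18% for strain at 8 weeks and 6.16% at 4 weeks. Ciart, a circadian repressor, stood at 26.2, 21.2 and 21.6 CPM in JR5558 at 8 weeks, 12.0, 11.8 and 13.0 CPM in JR5558 at 4 weeks, 14.8, 12.8 and 14.3 CPM in C57BL/6J at 8 weeks and 12.6, 14.1 and 12.9 CPM in C57BL/6J at 4 weeks. Its JR5558 retinas of 8 weeks lay above all 9 others, as for Usp2 and Ip6k2, with a log2 fold change of 0.72 ± 0.12 for strain at 8 weeks (edgeR adjusted p = 0.000827) and 0.91 ± 0.12 for age in JR5558 (edgeR adjusted p = 0.000473). Rora, an activator in the clock loop, fell with age in JR5558 by 0.41 ± 0.08 (edgeR adjusted p = 0.00964, and up to 0.0757 without any JR5558 library but 4-week replicate 3), as did Rorb by 0.43 ± 0.09 (edgeR adjusted p = 0.0135). In C57BL/6J edgeR called 0 of the 19 with age (3 at an unadjusted p under 0.05, 1 with DESeq2). Dbp and Nr1d1, clock outputs of large daily amplitude, had 0.40 ± 0.13 (edgeR adjusted p = 0.0844) and 0.19 ± 0.08 (edgeR adjusted p = 0.237) for strain at 8 weeks, and 0.40 ± 0.13 (edgeR adjusted p = 0.0760) and 0.20 ± 0.08 (edgeR adjusted p = 0.186) at 4 weeks. The part of collection time in the members' differences was not tested.

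Of 12 tested immediate early genes, which respond within minutes to light and handling, 1 was called for strain, beside 5.18% of all genes at 8 weeks and 6.16% at 4 weeks. Junb rose in JR5558 by 0.96 ± 0.21 at 8 weeks (edgeR adjusted p = 0.00903, and 0.0715 without C57BL/6J 8-week replicate 1) and by 0.89 ± 0.21 at 4 weeks (edgeR adjusted p = 0.0155, and up to 0.0867 without C57BL/6J replicate 3, JR5558 replicate 1 or 3 and with only the groups compared). Fos stood at 55.8, 45.5 and 54.1 CPM in JR5558 at 8 weeks, 30.6, 17.4 and 62.2 CPM in JR5558 at 4 weeks, 19.1, 40.8 and 38.9 CPM in C57BL/6J at 8 weeks and 33.6, 43.6 and 51.3 CPM in C57BL/6J at 4 weeks. Its strain difference at 8 weeks was 0.66 ± 0.32 (edgeR adjusted p = 0.292). Egr1 reached 141 CPM in JR5558 4-week replicate 3, against 44.6 and 18.5 CPM in the other JR5558 retinas of that age, and this is the library that was also high for Ip6k2, Usp2 and Ddit4. Their part in the members' values was not tested.

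The genes most like Sgk1 and Usp2 in their scatter within groups were found by the Pearson correlation of deviations of log2 CPM from the group mean over the 12 libraries, among 11436 genes of at least 5 CPM. For Sgk1 they were Amd1 (0.977), Stx12 (0.974), Lratd2 (0.968), Crls1 (0.966) and Vamp4 (0.960), and for Usp2 Polh (0.930), Dcaf11 (0.911), Irs2 (0.906), Kcnj3 (0.904) and Dusp7 (0.903). The libraries share depth and processing, and these are the highest values of a search over many genes. The likeness did not carry over to age: beside 0.85 for Sgk1 in JR5558, Amd1 had 0.24 and the other 4 between -0.05 and 0.07. Beside 0.84 for Usp2 in JR5558, its 5 genes had -0.21 to 0.08.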

How the data were processed

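Poly-A RNA of 12 whole retinas was sequenced and the submitters' processing notes name the mm10 genome, the read trimmer fastp, the aligner HISAT2 (2.0.5) and the counter featureCounts (1.5.0-p3). The deposited table holds raw counts per gene, per the file headers and the values, and FPKM by the authors, whose method is not given in the sources used here. FPKM served only to set levels of different genes side by side. Whether the libraries keep strand is not clear from the labels.

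The main tool was edgeR 4.0.16 (with limma 3.58.1, under R 4.3.3), and DESeq2 1.42.0 was an alternative. Low genes were removed with filterByExpr (at least 10 counts, at least 15 in total), libraries were scaled by TMM, and a quasi-likelihood fit gave each of the 4 groups its own mean. The 5 contrasts (strain at 8 and at 4 weeks, age in JR5558 and in C57BL/6J, and strain by age) were tested 2-sided, with Benjamini-Hochberg adjustment over all 18334 genes and a threshold of 0.05. The pipeline was tested on simulated data. P-values and standard errors of the main fit rest on the spread between mice within groups, with 3 mice per group. This spread was estimated over all 4 groups together and moderated across genes, so it also draws on groups outside a comparison.

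The members and all lists were chosen with earlier results of these data known. Named genes were all members, Nr3c2, Hsd11b1 and Fkbp4, up to 4 genes in order of adjusted p per comparison from the list of other induced genes and up to 2 from each other list, with Dbp, Per1, Per2, Nr1d1, Fos and Egr1 always named. Dusp1, Hif3a, Nedd4l, Tsc2, Ppip5k1 and Rorb were named after their values were seen. A gene that the rule selects is not reported here. The alternatives were RLE scaling, no filter, at least 1 CPM in 3 libraries, DESeq2, only the groups compared, a replicate block and leaving out each library. No pair of libraries was a duplicate: counts of replicates differed by 3.55 to 24.3 times sampling noise (chi-square per degree of freedom).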

Additional observations from a re-analysis of the deposited data

Results flagged for a closer look

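The strain effect at 8 weeks minus that at 4 weeks passed edgeR's threshold for 17 of 18334 tested genes (0.0927%). Among them were 4 of the 10 genes, which were chosen with these values known, so nothing is read from that count. It was 1.37 for Ip6k2, 0.89 for Usp2, 1.45 for Etnppl and -0.70 for Arrdc3, as log2 fold changes. The value for Ip6k2 was 1.68 and that for Usp2 1.03 without JR5558 4-week replicate 3, and the Arrdc3 call ended under 13 of 17 alternatives. For Etnppl the strains were apart in opposite directions, at 0.43 at 8 weeks and -1.03 at 4 weeks, and only the value at 4 weeks was called. For Ip6k2 the ages were apart in opposite directions, at 1.06 in JR5558 and -0.32 in C57BL/6J, and only the value in JR5558 was called. Groups without overlap are common: 30.2% of all tested genes for strain at 8 weeks and 19.6% at 4 weeks. For age they were 24.3% in JR5558 and 19.0% in C57BL/6J. The JR5558 retinas of 4 weeks were the only group with RNA of the Y-linked gene Ddx3y, so the strain effect at 4 weeks, the age effect in JR5558 and the difference of strain effects cannot be told apart from it.

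The ages of Dusp1 were also apart in opposite directions, with 68.3, 60.2 and 62.5 CPM at 8 weeks against 27.0, 19.7 and 53.6 CPM at 4 weeks in JR5558, and 23.3, 33.7 and 33.4 CPM at 8 weeks against 34.8, 41.8 and 44.8 CPM at 4 weeks in C57BL/6J. Its log2 fold change with age was 0.93 in JR5558 and -0.43 in C57BL/6J, and neither was called (edgeR adjusted p = 0.0533 and 0.423). The difference of these age effects, 1.36 ± 0.33, did not pass either (edgeR adjusted p = 0.253). Hif3a, a member of the hypoxia-inducible factor family, had strain differences of 0.47 at 8 weeks and -0.68 at 4 weeks with the strains apart at both ages. Neither was called (edgeR adjusted p = 0.306 and 0.107), and the difference of 1.15 ± 0.33 did not pass (edgeR adjusted p = 0.384).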

How the results depend on the processing

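Of 650 member values under alternatives, 648 moved by less than the spread between replicates, 2 moved (given above) and 0 reversed. Leaving out 1 of 3 replicates can hardly shift a comparison of 2 groups by that spread, so nothing is read from those values. Only called values could count as reversed. Calls were less stable: those of Fkbp5 and Arrdc3 ended as given above. Ddit4, Zbtb16, Etnppl, Ip6k2 and Arrdc3 gained calls, under 1 or 2 alternatives per comparison. Without a filter, 2 members were called for strain at 4 weeks. All genes called then numbered 854 for age in JR5558, 445 for age in C57BL/6J and 96 for strain by age, and the other induced genes 10, 1 and 4. DESeq2 called 705, 410 and 62 genes in these comparisons, and 1 other induced gene for strain by age. With only the groups compared, 558 genes were called for strain at 4 weeks, 2183 at 8 weeks, 544 for age in JR5558 and 22 for age in C57BL/6J, with 5 members and 14 other induced genes for strain at 8 weeks and 1 member for age in C57BL/6J. As reported, 1130 genes were called for strain at 4 weeks, 949 at 8 weeks, 277 for age in JR5558, 79 for age in C57BL/6J and 17 for strain by age. Same-numbered libraries correlated at -0.114 to 0.0867, so the numbers do not pair samples; a replicate block left 1 member called for age in C57BL/6J and kept other counts within 1.5 times.

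With each library left out in turn, genes called ranged from 814 to 1162 for strain at 4 weeks, 538 to 649 at 8 weeks, 63 to 689 for age in JR5558, 16 to 125 for age in C57BL/6J and 6 to 38 for strain by age. Members called ranged from 1 to 2, 3 to 3, 4 to 7, 1 to 2 and 3 to 4 in the same order, and other induced genes from 2 to 4, 7 to 8, 2 to 7, 0 to 0 and 0 to 4. Depth limits the rarest genes: over the 3 libraries of a group, Hsd11b1 had 29 to 55 counts and Zbtb16 169 to 308.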
